A study of Mus musculus with 8 samples.

Results

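The chemokine CXCL12 and its receptors CXCR4 and ACKR3 were followed in cultured embryonic mouse lungs treated with IQ1, a compound that disfavours the use of EP300 by β-catenin. The members are all spots of the array annotated to Cxcl12, Cxcr4 or Ackr3, which came to 5 of 62976 spots and 3 of 24304 genes: 2 spots of Cxcl12, 2 of Cxcr4 and 1 of Ackr3, whose older symbol is Cxcr7. These genes were picked with their IQ1 and control values at 9 h and 24 h in view. The difference between IQ1 and control is therefore given for them as a description, with its error and without a test.

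Whole lungs of C57BL/6J embryos at E12.5 were cultured as explants, and all carried the wild-type genome. At 9 h there were 3 arrays of lungs treated with 10 µM IQ1 and 3 control arrays of lungs given vehicle. The study's text counts fewer control arrays at 9 h than the labels do, and the labels were followed here. At 24 h there was 1 IQ1 and 1 control array, each from pooled lungs. PBS is the vehicle in the labels. The methods describe cultures with doxycycline in PBS and with IQ1 in DMSO together, and give the control vehicle as PBS or DMSO. Which of them the IQ1 controls received is not settled, so that a solvent difference and IQ1 cannot be told apart. The labels also describe the treated lungs as a global inhibition of FGFR2b, and the grouping followed the treatment, IQ1 or control. The 24 h lungs came from another experiment, so that time and experiment cannot be told apart either. Nothing in the labels ties an array to an animal, so p-values measure the spread between arrays only, which may be technical. All levels are log2 intensities, quantile-normalised over the 8 arrays, and all differences between treatments are IQ1 minus control on the log2 scale.

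CXCL12, also called SDF-1, is a secreted chemokine that attracts cells bearing its receptors. CXCR4 is a G protein-coupled receptor that signals through Gi proteins and is removed from the cell surface through β-arrestin. ACKR3 is an atypical receptor that binds the same ligand, recruits β-arrestin and takes up and degrades CXCL12, by which it shapes the gradient that CXCR4 reads. In embryonic organs CXCL12 is made largely by mesenchymal and perivascular cells, while CXCR4 is found on endothelial cells, on haematopoietic cells and on other migrating cells, and the pair is known for its part in the growth and patterning of vessels.

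The promoters of the members are shown because IQ1 acts on a coactivator of the TCF/LEF partner β-catenin, so that a reader can see which of the 3 genes has such a motif next to its start. Each sequence spans the RefSeq start of the gene, on build GRCm38.p6, and is written 5′ to 3′ on the strand of the gene. Cxcl12 lies at chr6:117168285-117168584 on the plus strand, Cxcr4 at chr1:128592250-128592549 on the minus strand and Ackr3 at chr1:90203730-90204029 on the plus strand. Capitals mark matches to the motifs named after the sequences.
Cxcl12: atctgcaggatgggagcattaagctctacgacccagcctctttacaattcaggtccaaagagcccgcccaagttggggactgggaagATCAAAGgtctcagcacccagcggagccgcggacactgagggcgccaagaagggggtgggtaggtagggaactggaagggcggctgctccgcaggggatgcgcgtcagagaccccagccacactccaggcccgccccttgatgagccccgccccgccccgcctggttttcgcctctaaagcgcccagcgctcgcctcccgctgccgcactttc
Cxcr4: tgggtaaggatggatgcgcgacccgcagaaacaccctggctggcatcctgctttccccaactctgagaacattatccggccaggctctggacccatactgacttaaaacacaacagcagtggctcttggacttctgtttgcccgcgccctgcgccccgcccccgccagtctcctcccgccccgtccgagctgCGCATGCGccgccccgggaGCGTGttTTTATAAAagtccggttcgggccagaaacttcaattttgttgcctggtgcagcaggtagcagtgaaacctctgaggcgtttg
Ackr3: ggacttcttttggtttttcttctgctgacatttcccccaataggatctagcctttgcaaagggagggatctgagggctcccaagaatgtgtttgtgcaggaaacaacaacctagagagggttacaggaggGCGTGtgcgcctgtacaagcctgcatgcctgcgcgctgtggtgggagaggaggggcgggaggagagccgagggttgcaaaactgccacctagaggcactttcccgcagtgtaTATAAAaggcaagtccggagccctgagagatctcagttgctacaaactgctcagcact

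In these windows 5 motifs were searched on both strands. The TCF/LEF sequence ATCAAAG had 1 match, in Cxcl12, beginning at position -163 from the start, and 3.73% of 32851 mouse promoter windows of the same length held it. The TATA sequence TATAAA was present in Cxcr4 at -30, where a reverse match at -32 overlaps it, and in Ackr3 at -8, against 13.6% of all windows. The hypoxia response core GCGTG was in Cxcr4 and Ackr3 and in 32.4% of windows, its variant ACGTG was in none of the 3 and in 19.6% of windows, and the NRF1 core CGCATGCG was in Cxcr4 and in 1.87%. These are matches of letters and do not show binding.

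One array, control replicate 2 at 9 h, was unlike all others. Its Pearson correlation with them across spots was 0.583 to 0.602, whereas the remaining 7 arrays correlated at 0.953 to 0.982 with one another, and limma gave it an array weight of 0.0319, with 0.759 to 4.16 on the 5 remaining 9 h arrays. Values at 9 h are therefore given from the fit of all 6 arrays and from a fit of 5 arrays without it. The median difference of all 24304 genes was 0.16 with 6 arrays, 0.01 with 5 arrays and 0.02 at 24 h. With 6 arrays 0 genes passed limma's moderated test at an adjusted p of 0.05, while 490 had an unadjusted p under 0.05. With 5 arrays 3 genes passed, all lower with IQ1, and 2037 had an unadjusted p under 0.05.

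Cxcr4, the signalling receptor, was the member with the lowest levels in the IQ1 lungs relative to control. Its brighter spot read 9.34, 9.25 and 9.66 on the 3 IQ1 arrays at 9 h and 11.59, 10.58 and 11.46 on the 3 control arrays. The 2 groups did not overlap, and the lowest control value, that of replicate 2, lay 0.92 above the highest IQ1 value. The means were 9.42 ± 0.21 (SD, n = 3) for IQ1 and 11.21 ± 0.55 (SD, n = 3) for control. The difference was -1.80 (SE 0.43, 95% interval -2.83 to -0.76), a 3.47-fold higher level in control. Without control replicate 2 the gap between the groups was 1.80 and the difference was -2.11 (SE 0.23, 95% interval -2.68 to -1.54), or 4.32-fold. Since whole lungs were measured, fewer cells of a type and less RNA per cell cannot be told apart.

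The second, dimmer spot of Cxcr4 carries the same transcript annotation and gave the same direction. It read 7.75, 7.46 and 8.38 with IQ1 at 9 h and 10.12, 8.36 and 9.93 in the controls. Only control replicate 2 reached into the IQ1 range, by 0.02. The difference was -1.61 (SE 0.59, 95% interval -3.05 to -0.17) with 6 arrays and -2.16 (SE 0.32, 95% interval -2.95 to -1.38) with 5 arrays, where the lowest control lay 1.55 above the highest IQ1 array. On each array the brighter spot exceeded the dimmer one by 1.27 to 1.79, except on control replicate 2, where the distance was 2.22. The spots of Cxcr4 thus kept a near constant distance on the other 7 arrays in both treatments.

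At 24 h the same separation was seen on the array pair from pooled lungs. The brighter spot of Cxcr4 read 9.49 with IQ1 and 11.50 in control, a difference of -2.01 or 4.02-fold, and the dimmer spot read 8.13 and 10.02, a difference of -1.89 or 3.71-fold. There was 1 array per group at this time, so these values have no replicate error. Across both times all 4 IQ1 arrays lay below all 4 control arrays for the brighter spot of Cxcr4, which held for no other spot of the members.

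**Figure D1:**
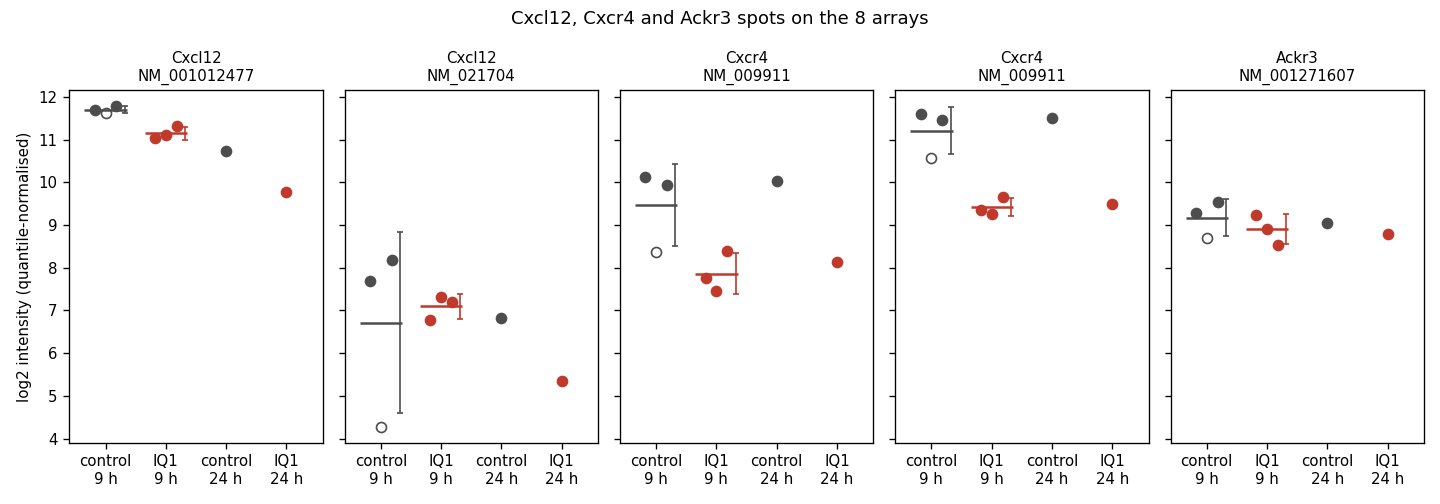
Each panel plots 1 spot, named by gene and listed transcript, with the quantile-normalised log2 intensity on the y axis, points for single arrays (black control, red IQ1, open circle control replicate 2 at 9 h), and lines and bars for the mean and SD of the 3 arrays per group at 9 h. The brighter Cxcr4 spot reads 9.25 to 9.66 on the 4 IQ1 arrays and 10.58 to 11.59 on the 4 control arrays, while the IQ1 and control arrays of Ackr3 overlap at 9 h.

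Cxcl12, the ligand, differed less between treatments than Cxcr4. Its brighter spot, listed to NM_001012477, read 11.03, 11.11 and 11.32 with IQ1 at 9 h and 11.70, 11.63 and 11.78 in control. The groups did not overlap, and 0.31 separated the nearest arrays, with control replicate 2 close to the other controls. The means were 11.15 ± 0.15 (SD, n = 3) and 11.70 ± 0.07 (SD, n = 3). The difference was -0.55 (SE 0.34, 95% interval -1.37 to 0.27) with 6 arrays and -0.59 (SE 0.22, 95% interval -1.12 to -0.05) with 5 arrays, the latter a 1.502-fold higher level in control. The interval included 0 with 6 arrays and not with 5, although this spot itself read alike on all 3 controls. Its own residual SD was 0.12 with 6 arrays and 0.13 with 5. The SE instead uses limma's moderated variance, which draws on all genes, including their spread on control replicate 2 in the 6-array fit.

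The second spot of Cxcl12, listed to NM_021704, depended on control replicate 2. It read 6.77, 7.33 and 7.20 with IQ1 and 7.69, 4.28 and 8.17 in control, so that the control mean of 6.71 had an SD of 2.12 (n = 3). The difference was 0.39 (SE 1.05, 95% interval -2.16 to 2.93) with 6 arrays and -0.83 (SE 0.29, 95% interval -1.52 to -0.14) with 5 arrays. The direction of this spot thus turned with a single array, on which it lay 7.35 below the brighter spot, against 3.61 to 4.42 on the other 7 arrays. Without that array its IQ1 and control values did not overlap, with 0.37 between the nearest.

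At 24 h the brighter Cxcl12 spot read 9.77 with IQ1 and 10.73 in control, a difference of -0.96 or 1.95-fold. The dimmer spot read 5.36 and 6.83, a difference of -1.47 or 2.78-fold. Both spots were lower on the IQ1 array, and the control array at 24 h lay below every IQ1 array at 9 h on the brighter spot, so the 4 IQ1 arrays as a whole overlapped the 4 control arrays.

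Ackr3, the scavenging receptor, has a single spot, listed to NM_001271607. It read 9.24, 8.92 and 8.54 with IQ1 at 9 h and 9.28, 8.70 and 9.54 in control, with means of 8.90 ± 0.35 (SD, n = 3) and 9.18 ± 0.43 (SD, n = 3). The groups overlapped through control replicate 2, and without it the lowest control lay 0.04 above the highest IQ1 array. The difference was -0.28 (SE 0.42, 95% interval -1.29 to 0.73) with 6 arrays and -0.51 (SE 0.28, 95% interval -1.20 to 0.17) with 5 arrays. At 24 h the values were 8.80 with IQ1 and 9.04 in control, a difference of -0.25. Both intervals at 9 h included 0 and also included differences as large as that of Cxcl12.

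Counts over the members are set beside those of all genes, and nothing is read from them because the members were picked on this contrast. Among genes that passed limma's test, the members counted 0 of 3 in both fits, beside 0% of all genes with 6 arrays and 0.0123% with 5 arrays. Every IQ1 array at 9 h lay below every control array for Cxcl12 and Cxcr4, 2 of 3, beside 5.25% of all genes, and without control replicate 2 this held for 3 of 3, beside 13.1%. All 4 IQ1 arrays lay below all 4 controls for 1 of 3, Cxcr4, beside 1.81%. At 24 h 1 of 3, again Cxcr4, was lower by at least 1.0, beside 4.97%.

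Ordered over the whole array, Cxcr4 lay nearest the low end. With 5 arrays 50 of 24304 genes had a lower difference than Cxcr4, and at 24 h there were 135, whereas with 6 arrays there were 1110. Among the 12152 genes above the median gene mean the counts were 15, 28 and 119. For Cxcl12, 1802 of 24304 genes were lower with 5 arrays, 1311 at 24 h and 5704 with 6 arrays. For Ackr3 the counts were 2302, 7177 and 7642. The place of Cxcr4 was close to the end in the 5-array fit and at 24 h, and the other 2 members stood further in. This order comes from the values on which the members were picked, so nothing is read from it.

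**Figure D2:**
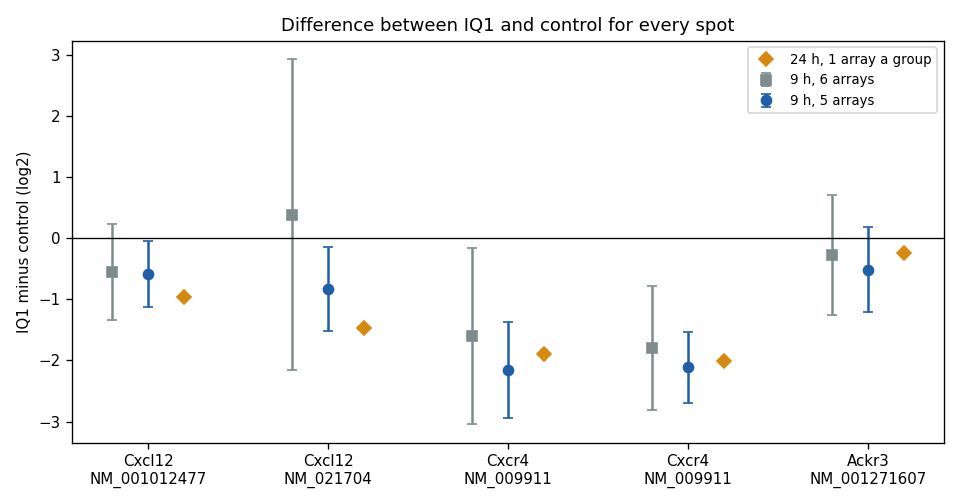
The y axis gives the log2 difference IQ1 minus control for each of the 5 spots, with squares for 6 arrays and circles for 5 arrays at 9 h, bars for the 95% interval of a limma fit over all spots, and diamonds for the array pair at 24 h, which has no error. Both Cxcr4 spots lie between -1.61 and -2.16 in all comparisons, and the dimmer Cxcl12 spot changes sign between 6 and 5 arrays.

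The values at 24 h and 9 h were also set against each other within a treatment. They come from the arrays on which the members were picked and from 1 array per group at 24 h, which is assumed to vary like the arrays at 9 h, so these differences are a description as well. The largest were those of Cxcl12. In control the 24 h minus 9 h difference of its brighter spot was -0.97 (SE 0.48, 95% interval -2.12 to 0.19) with 8 arrays and -1.004 (SE 0.29, 95% interval -1.72 to -0.29) without control replicate 2. In IQ1 lungs it was -1.38, with an SE of 0.48 with 8 arrays and of 0.28 with 7. On this spot the reading at 24 h lay below all those at 9 h within each treatment. The dimmer Cxcl12 spot differed by -1.10 in control with 7 arrays, by 0.12 with 8 arrays, and by -1.74 in IQ1 lungs.

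The brighter Cxcr4 spot had readings at 24 h close to those at 9 h in both treatments. In control lungs the 24 h minus 9 h difference was 0.29 (SE 0.60, 95% interval -1.18 to 1.75) with 8 arrays and -0.03 (SE 0.31, 95% interval -0.79 to 0.73) with 7 arrays. In IQ1 lungs it was 0.08, with a 95% interval of -1.39 to 1.54 with 8 arrays and -0.64 to 0.80 with 7. The dimmer Cxcr4 spot differed by 0.55 in control with 8 arrays, by -0.002 with 7 arrays, and by 0.27 in IQ1 lungs. For Ackr3 the differences were -0.13 with 8 arrays and -0.37 with 7 arrays in control, and -0.10 with IQ1. The intervals of Cxcr4 leave room for changes of more than 1.5-fold in either direction. Among genes that passed limma's test between the times, the members counted 0 of 3 in each treatment, beside 0% of all genes with 8 arrays and 0.00823% with 7 arrays in control and likewise in IQ1 lungs, and nothing is read from this.

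The differences of the other genes of the chemokine system centred near 0. The genes tested were 87 for other chemokine ligands, other receptors, the signalling chain of CXCR4 and the processing or alternative partners of CXCL12, and 55 of them lay below the median gene mean. In the 6-array and in the 5-array fit 0 of 87 passed limma's test, beside 0% and 0.0123% of all genes. In these fits 3 and 8 had an unadjusted p under 0.05, beside 490 and 2037 of all 24304 genes. Nothing is read from these counts. Of all genes, 42.8% had a lower value with IQ1 in the 6-array fit, 48.3% in the 5-array fit and 48.6% at 24 h. Those shares are the background for the list counts that follow. Their median difference was 0.05 with 6 arrays, 0.03 with 5 arrays and 0.16 at 24 h, beside 0.16, 0.01 and 0.02 for all genes.

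Among the 33 other ligands 14 had a lower value with IQ1 in the 6-array fit, 10 in the 5-array fit and 11 at 24 h. The brightest was Cxcl11, which binds CXCR3 and also ACKR3, and it differed by 0.03 with 5 arrays and 0.16 at 24 h. Ccl25, the ligand of CCR9, differed by 0.17 and 0.57. Pf4, the platelet factor made by megakaryocytes and also found in embryonic macrophages, had a mean of 9.32 ± 0.41 (SD, n = 3) with IQ1 and 7.26 ± 0.93 (SD, n = 3) in control, a difference of 2.06 with 6 arrays (SE 0.57, limma adjusted p = 0.730), 1.52 with 5 arrays (SE 0.30, limma adjusted p = 0.284) and 1.78 at 24 h. Pf4 thus had its values on the opposite side to the members. Cxcl15, a chemokine of lung epithelium named after its values were seen, had the lowest ligand value at 24 h, -3.04, against 0.04 at 9 h with 5 arrays.

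Of the 20 other receptors tested, 10 were lower with IQ1 in the 6-array fit, 6 in the 5-array fit and 6 at 24 h. Cx3cr1, the fractalkine receptor of macrophages, differed by 1.27 with 6 arrays, 0.42 with 5 arrays and 0.44 at 24 h. For Ackr1, a decoy receptor on erythroid and venular endothelial cells, the values were 1.59, 0.18 and 1.05, and for Ccr9 they were 1.00, 0.14 and 1.08. Control replicate 2 thus set much of the 9 h value of each. The lowest value in this group with 5 arrays was the -0.33 of Ccr10, named after its values were seen and at 0.37 with 6 arrays, against -2.11 for Cxcr4.

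The genes that act downstream of CXCR4 were also spread about 0. In this list of 22 genes, 11 were lower with IQ1 in the 6-array fit, 15 in the 5-array fit and 11 at 24 h. The Gi subunit Gnai3 differed by -0.03 and the G protein β subunit Gnb1 by -0.38 with 5 arrays, and by -0.59 and -0.04 with 6 arrays. Arrb1, a β-arrestin gene, differed by -0.60 with 5 arrays (SE 0.28, limma adjusted p = 0.640) and by -0.89 at 24 h. Arrb2, another β-arrestin gene and named after its values were seen, differed by -0.09 with 5 arrays and by 0.94 at 24 h. With 6 arrays Arrb1 differed by -0.41 and Arrb2 by -0.98. Elmo1, which activates Rac with a DOCK partner in chemotaxis, had the lowest value of the list in the 5-array fit, -2.29 with 5 arrays (SE 0.37, limma adjusted p = 0.200), -1.45 with 6 arrays and -0.82 at 24 h, and is named after its values were seen.

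Of the 12 processing enzymes and alternative partners, 8 were lower with IQ1 in the 5-array fit and 5 at 24 h. Mif, a cytokine that can also bind CXCR4 and ACKR3, differed by -0.33 at 9 h and 0.30 at 24 h, and Hmgb1, which forms a complex with CXCL12, by -0.08 and 0.05. Mmp2, a protease that cleaves CXCL12, differed by -1.05 with 5 arrays (SE 0.36, limma adjusted p = 0.518) and -1.003 at 24 h, but by -0.17 with 6 arrays. ACKR3 also takes up the peptide adrenomedullin, whose gene Adm, named after its values were seen, differed by 0.23 with 6 arrays, -0.68 with 5 arrays and -0.74 at 24 h. Calcrl, the receptor of that peptide and named after its values were seen, differed by -1.80 with 5 arrays (SE 0.29, limma adjusted p = 0.200), by -2.62 at 24 h, and by -0.32 with 6 arrays, where control replicate 2 raised its control SD to 2.58.

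**Figure D3:**
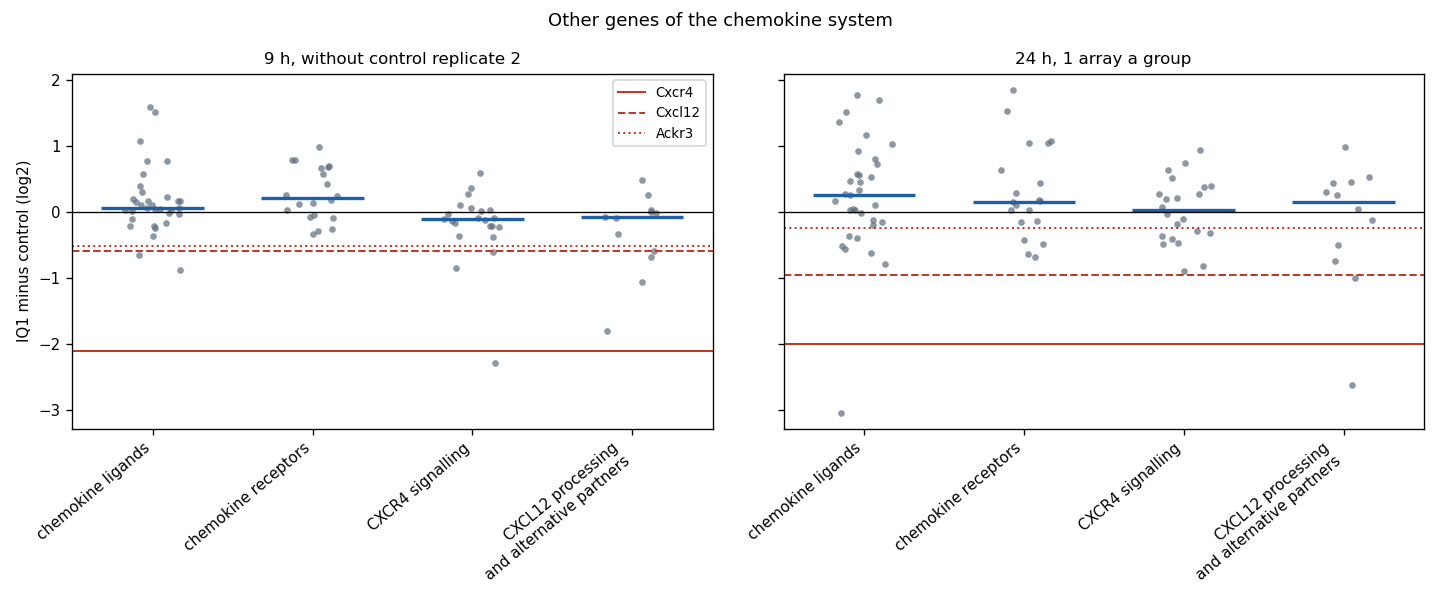
Points give the log2 difference IQ1 minus control of each gene in 4 lists of the chemokine system, at 9 h with 5 arrays and at 24 h with 1 array per group, with a blue bar for the list median and red lines for the members. The list medians lie between -0.11 and 0.27, while the line of Cxcr4 lies at -2.11 and -2.01.

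CXCR4 is a receptor of endothelial cells, and the markers of that cell type were low on the same arrays. Of 16 endothelial markers, 11 of them below the median gene mean, 15 were lower with IQ1 with 6 arrays and 16 with 5 arrays and at 24 h, with medians of -1.51, -1.80 and -2.18. Of all genes 42.8%, 48.3% and 48.6% were lower in these comparisons. In limma's test 0 of 16 passed, beside 0% of all genes with 6 arrays and 0.0123% with 5 arrays. The lowest limma adjusted p was 0.0794 with 5 arrays. The mean level of the list ran from 5.48 to 5.89 on the IQ1 arrays at 9 h and from 7.20 to 7.51 on the controls, and was 5.56 and 7.47 at 24 h. The groups did not overlap, as for the brighter Cxcr4 spot. Log2 intensities have no true 0, so that no marker can be said to be absent.

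Some single endothelial genes differed by amounts close to that of Cxcr4 in the 5-array fit, and others did not. The endothelial list ran from -3.20 for Emcn to -0.23 for Sox17 with 5 arrays, with a median of -1.80. Flt1, Eng and Tek differed by -0.65, -0.70 and -0.78 in that fit. Sox17 differed by 0.35 with 6 arrays. Emcn, Sox17, Flt1, Eng and Tek are named after their values were seen. Pecam1, an adhesion molecule of endothelial junctions, had means of 6.08 ± 0.37 (SD, n = 3) and 8.34 ± 0.22 (SD, n = 3) and differed by -2.26 with 6 arrays, -2.32 with 5 arrays and -2.38 at 24 h. With 5 arrays the junction genes Cdh5 and Cldn5 differed by -2.65 and -2.55 and the VEGF receptor gene Kdr by -2.08. With 6 arrays the values were -2.07, -1.98 and -0.66, the last with a control SD of 2.46 through control replicate 2. The level of Cxcr4 relative to the mean of the endothelial list was 3.45 to 3.94 on the 4 IQ1 arrays. It was 4.03 to 4.08 on the controls except control replicate 2 at 9 h, which had the lowest value, 3.38. The IQ1 minus control difference of this relative level was -0.12 with 6 arrays, -0.35 with 5 arrays and -0.10 at 24 h. Relative to the mean of the arterial markers this difference was -1.10, -1.25 and -1.18, and relative to the tip cell markers -1.31, -1.20 and -0.91. Relative to the mean of the mesenchymal list it was -1.97, -2.13 and -2.15, and relative to the macrophage list -2.79, -2.75 and -2.69. The part of endothelial cell number in the Cxcr4 values was not tested.

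Arterial and tip cell markers, which label endothelial cells in which Cxcr4 is known to be high, were less uniform. Of 8 arterial markers 7 were lower with IQ1 in the 5-array fit, with a median of -0.80, and of 6 tip cell markers 5 were lower, with a median of -0.45. Esm1, a secreted product of tip cells, differed by -3.67 with 5 arrays (SE 0.30, limma adjusted p = 0.0687) and -2.71 at 24 h. The arterial connexin genes differed from each other, Gja4 by -2.12 and Gja5 by -0.02. Dll4, the Notch ligand of arteries and tip cells, differed by -0.74, and Apln, the ligand of the apelin receptor, and Angpt2, a ligand of TIE2, by -0.49 and -0.40. With 6 arrays Gja4 differed by -3.56 and Dll4 by -0.97, and Gja5, Apln and Angpt2 were above 0, at 0.49, 0.51 and 0.46. The tip cell median was then 0.34. At 24 h the arterial and tip cell medians were -1.02 and -1.09.

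**Figure D4:**
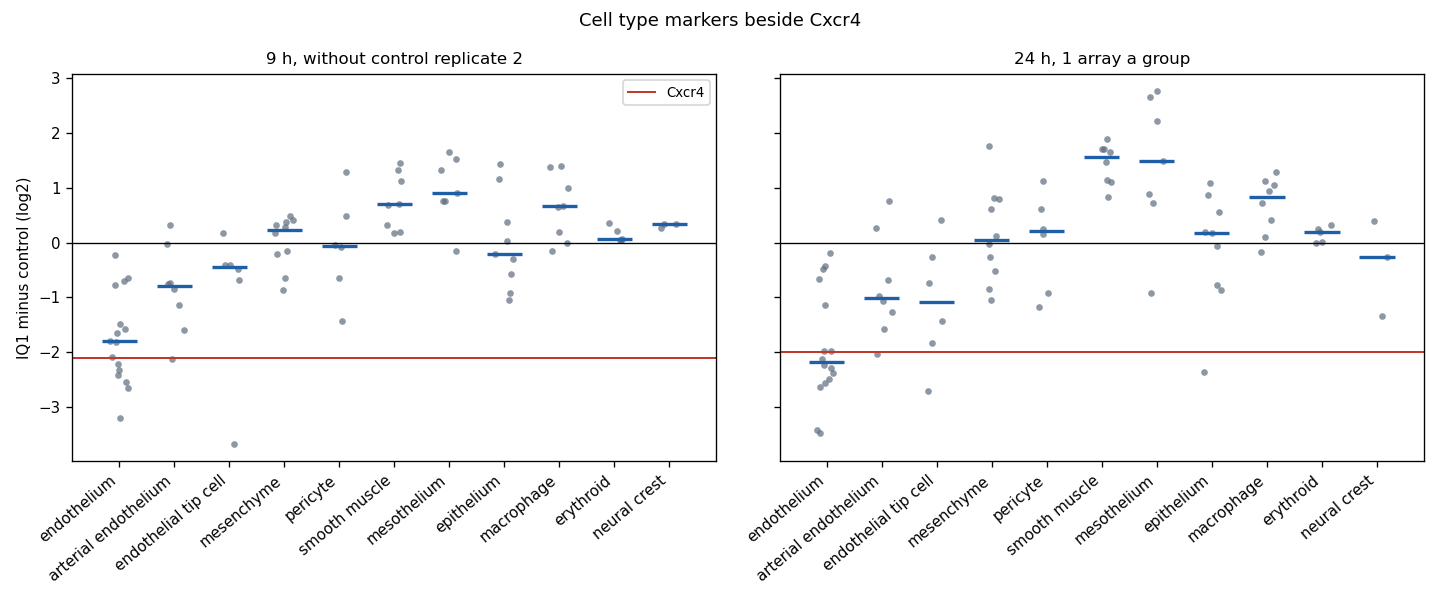
Points give the log2 difference IQ1 minus control of each marker gene in 11 cell type lists at 9 h with 5 arrays and at 24 h with 1 array per group, blue bars the list medians and the red line Cxcr4. The endothelial median of -1.80 at 9 h and -2.18 at 24 h lies near the line of Cxcr4. The medians of the other lists lie between -0.80 and 0.91 at 9 h and between -1.09 and 1.57 at 24 h.

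The marker lists of the cell types in which Cxcl12 is largely made had medians near 0, with single genes on both sides. With 5 arrays the pericyte markers ran from -1.43 for Pdgfrb to 1.29 for Rgs5. The mesenchymal markers ran from -0.86 for Meox2 to 0.49 for Tcf21. These 4 genes are named after their values were seen. Of 10 mesenchymal markers 1 was lower with IQ1 with 6 arrays and 4 with 5 arrays, with medians of 0.17 and 0.23, and of 6 pericyte markers 3 and 4 were lower, with medians of 0.01 and -0.06. At 24 h the medians were 0.05 and 0.21, while Cxcl12 differed by -0.96. The mean level of the mesenchymal list ran from 10.00 to 10.44 on the IQ1 arrays at 9 h and from 9.74 to 10.25 on the controls, and these ranges overlapped.

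Markers of macrophages, smooth muscle and mesothelium had mostly higher values with IQ1. Of 8 macrophage markers 7 were higher with 6 arrays and 6 with 5 arrays, with medians of 1.03 and 0.66, and the list mean was 8.66 to 8.85 with IQ1 against 7.07 to 8.24 in control at 9 h. Smooth muscle (8 of 8 higher, median 0.70) and mesothelium (6 of 7 higher, median 0.91) were also higher with 5 arrays, and epithelium (4 of 9 higher) had a median of -0.21. The medians of smooth muscle, mesothelium and epithelium with 6 arrays were 0.55, 2.17 and -0.13. For 5 erythroid markers the medians were 0.68 with 6 arrays and 0.06 with 5, and for 3 neural crest markers 0.87 and 0.34, so that control replicate 2 moved several of these lists. In none of these lists did a gene pass limma's test, beside 0% of all genes with 6 arrays and 0.0123% with 5 arrays.

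**Figure D5:**
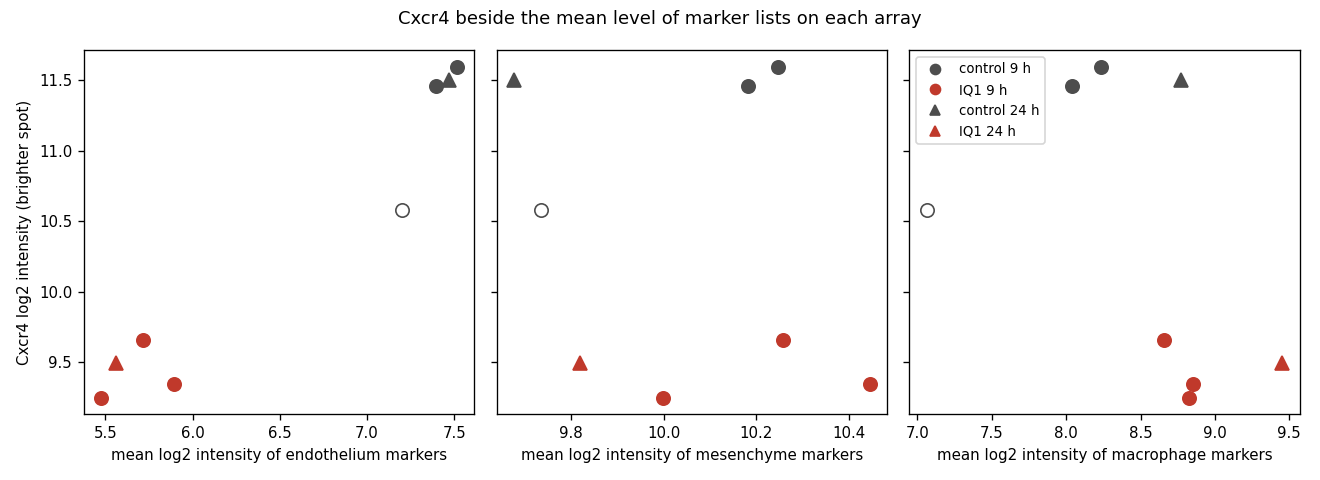
Each point is 1 array, with the log2 intensity of the brighter Cxcr4 spot on the y axis and the mean log2 intensity of the endothelial, mesenchymal or macrophage markers on the x axis (circles 9 h, triangles 24 h, open circle control replicate 2). In the endothelial panel the IQ1 arrays lie at 5.48 to 5.89 and the control arrays at 7.20 to 7.51, in the mesenchymal panel the treatments overlap on the x axis, and in the macrophage panel the highest control array, at 24 h, lies within the IQ1 range.

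Genes with the pattern most like that of each member were found by Pearson r over the 7 arrays without control replicate 2, among 12151 other genes above the median gene mean. The arrays fall into IQ1 and control groups and into 2 times, so that r mostly reflects those groups, and it is given as a description. For Cxcr4 the closest were Dusp6, a phosphatase of ERK (r = 0.996), Dusp2, another MAP kinase phosphatase (0.992), Pecam1 (0.992), the endothelial and progenitor surface gene Cd34 (0.992) and the zinc finger gene Tshz2 (0.991). Over all 8 arrays r was 0.921 to 0.966 for the first 4 and 0.594 for Tshz2. Dusp6 differed by -1.97 between IQ1 and control with 5 arrays, Dusp2 by -3.00 and Cd34 by -3.63.

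For Cxcl12 the closest genes were Hoxa3, Sfxn1, Emp1, Gpatch1 and Cdc42ep4, with r of 0.985 to 0.992 over 7 arrays and 0.469 to 0.992 over 8. Emp1, an epithelial membrane protein gene, kept r = 0.992 with all 8 arrays and differed by -0.52 with 5 arrays, close to the value of Cxcl12. For Ackr3 they were Coq5, Pask, Rabl3, Map3k15 and Cul4b, with r of 0.960 to 0.982 over 7 arrays and 0.581 to 0.707 over 8. None of these 15 genes was another member. Over 7 arrays Cxcl12 had r = 0.465 with Cxcr4 and 0.500 with Ackr3, and Cxcr4 had 0.602 with Ackr3.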

How the data were processed

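RNA of whole lung explants was amplified as cDNA, labelled with 1 dye and hybridised to Agilent mouse arrays. The authors deposited log2 intensities per spot, background corrected with NormExp and quantile-normalised with limma; the log base is not given and was read as 2 from the range, 2.49 to 16.0. After quantile normalisation a difference is relative to the remaining genes on the array. No spot flags or background readings entered, so signal over background is unknown, and the number of arrays limits the precision.

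Of 62976 spots, 43941 had a gene name through a RefSeq table (33708 by accession, 9763 by symbol, 463 by synonym, 7 as listed). A missing value removed 8 named spots. The spot of highest mean over the 8 arrays stood for a gene, giving 24304 genes. Differences were fitted with lmFit and eBayes of limma 3.58.1 in R 4.3.3, two-sided, with Benjamini-Hochberg adjustment over all genes and a threshold of 0.05. SEs and intervals use the moderated variance of eBayes, which draws on all genes and is not the spread of a single spot alone. At 24 h no treatment test was made. The fit was tested on simulated data. Alternatives were a replicate block, each array left out in turn, the mean of a gene's spots, all spots, a filter on dim genes, array weights, an intensity trend with a robust prior, a joint fit of the 8 arrays, and array centring.

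The members, the gene lists and the settings were chosen with earlier results of these data known. Named were the members with every spot, in each chemokine list all genes that passed and the 3 of highest mean signal, 10 endothelial, arterial and tip cell genes, and per member the 5 genes of highest r among those above the median gene mean of 6.72. Genes named outside this rule are marked as named after their values were seen. Promoter sequences came from RefSeq.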

Additional observations from a re-analysis of the deposited data

How the results depend on the processing

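The Cxcr4 difference at 9 h stayed between -2.11 and -1.60 under the 13 alternatives tried, and that of Ackr3 between -0.64 and -0.09. The Cxcl12 difference lay between -0.64 and -0.0826, and its highest value, -0.0826, came from the mean of its spots, because control replicate 2 is low on the dimmer spot. At 24 h the mean of spots gave -1.22 for Cxcl12. Leaving out 1 array at a time gave 0 to 3 genes called at 9 h, with 3 only without control replicate 2, and 0 to 2 called in either comparison of 24 h with 9 h, with 2 only without that array. Array weights gave 233 genes at 9 h and 3 in the chemokine lists, Calcrl at -1.71, Elmo1 at -2.03 and Pf4 at 1.36 (limma adjusted p = 0.0395, 0.0285 and 0.0431). The 24 h minus 9 h values of Cxcr4 (control -0.03 to 0.48, IQ1 -0.01 to 0.20) and Ackr3 (-0.37 to 0.05 and -0.28 to 0.07) changed sign among the alternatives. Deviations of same-numbered arrays from their group means correlated at 0.0038, -0.0036 and 0.0153. Control replicate 2 enters the control mean, so these values cannot show whether the replicate numbers pair the arrays. The replicate block left the Cxcr4 difference at -1.80 and 0 genes called. With 3 arrays a group at 9 h and 1 at 24 h, and no spot flags, small differences were not detectable. Large ones could fail as well with 6 arrays, as Esm1 did at -4.09 (limma adjusted p = 0.662).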
